A study of Mus musculus with 194 samples.

Results

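Transposon insertions were followed in 10 genes that astrocytes use to move metabolites, water and zinc and to secrete proteins: Slc7a11, Cpe, Clu, Apoe, Cst3, Aldoc, Mlc1, Atp13a4, Slc39a12 and Pla2g7. They are 10 of the 21627 protein-coding genes for which insertions were counted, on chromosomes 1 to 19 and X of mouse genome GRCm38. Each locus was the gene body with 10 kb added on each side, an insertion was 1 row of a deposited table, and a level is the number of insertions in the locus per 1000000 insertions of that table (IPM). The genes were chosen after earlier results of these data had named some of them: windows at Pla2g7, Atp13a4 and Slc39a12 had come up as lower in Syn1Cre than in Syn1CreNeg animals, and Cst3 as lower in Syn1Cre than in GFAPCre animals. Both of those comparisons are therefore given below as values with no test. Tests of these 4 genes that reuse the Syn1Cre animals are no independent support. Nor are tests of Pla2g7, Atp13a4 and Slc39a12 that reuse the Syn1CreNeg animals, or of Cst3 that reuse the GFAPCre animals. The loci held 40574 insertions in all, of which Cpe held 23408, Slc7a11 9315, Atp13a4 1863, Pla2g7 1650, Cst3 1354, Aldoc 886, Slc39a12 818, Clu 728, Mlc1 287 and Apoe 265.

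The study recorded where a transposase had worked in the brain with calling cards: a transposase, alone or joined to a factor of interest, leaves reporter transposons at TTAA sequences close to where it sits on the genome. Mice were given the viruses (AAV) within the first days of life (postnatal day 0 to 1). In the self-reporting transposon libraries insertions were read from RNA, and those of cortex came from a cortex cut into 10 parts. The labels give no parts for the Rbp4Cre_TRAP libraries, described below, which came from whole forebrain. In the BrokenHeart libraries insertions were read from cortical DNA by inverse PCR with 20 transposon barcodes. The labels list 194 GEO samples, combined by the authors into 47 tables for 46 animals in 11 groups and for N2a, a mouse neuroblastoma cell line.

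C57bl6J (2 animals) received Cre-independent viruses. Syn1Cre and Syn1CreNeg (6 animals each) are mice of a line that drives Cre from a neuronal synapsin promoter and animals labelled Cre-negative. GFAPCre and GFAPCreNeg (6 each) are the like pair for a glial fibrillary acidic protein promoter, which is used to reach astrocytes and in many lines is also active in progenitors that give rise to neurons. Frontflip_GFAPCre and Frontflip_GFAPCreNeg (3 each) carried a construct labelled Frontflip. Syn1Cre_SP1_P28 (4) and Syn1Cre_SP1_P10 (3) are Syn1Cre groups labelled with the transcription factor SP1 and with P28 or P10, read here as an age of 28 or 10 days. Rbp4Cre_TRAP (4) came from whole forebrain of Rbp4Cre mice, a line used for layer 5 cortical neurons, after TRAP, usually a pull-down of ribosomes from the Cre cells. BrokenHeart had 3 animals. The labels give neither the transposase nor its promoter, no age for the other groups and no sex, and they do not say that each numbered replicate is a separate mouse. It is read so here, and if it were not, the p-values would measure technical spread alone.

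Astrocytes take up cystine through the antiporter whose transport subunit is Slc7a11 (xCT) and use it to make glutathione, which they also supply to neurons. They secrete the lipid carriers apolipoprotein E and clusterin and the protease inhibitor cystatin C, and their endfeet carry Mlc1, a membrane protein that works with chloride and potassium channels in water and ion balance. An unfused transposase of this kind tends to insert at active enhancers and promoters, so insertions over a gene are a record of chromatin and are no measure of its RNA. A level is a share of a table, so it also falls when more insertions land elsewhere. For a lower level in bulk tissue, more insertions elsewhere, fewer astrocytes that carry a transposon and fewer insertions per astrocyte cannot be told apart.

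The stretches of DNA that carried the insertions nearest the starts of members are shown for 4 genes, since they give the exact landing sites. RefSeq promoter windows of GRCm38.p6, from 250 bases before to 50 bases after a listed transcript start, were found for 8 members (12 windows), and none was matched for Cpe or Clu. In these windows 868 of 868 insertions lay on a TTAA. TTAA stood in 8 of 12 member windows and in 52.4% of all 32851 promoter windows of that length. GGGCGG, the core of the GC box that SP1 is known to bind, stood on either strand in 4 of 12 member windows (Cst3, Aldoc, Atp13a4 and Pla2g7) and in 35.7% of all windows. The motifs have no letter in common, so their matches cannot overlap. Capitals mark TTAA and, in Cst3, GGGCGG, and positions are counted from the first base of the motif to the transcript start, with negative numbers upstream.
Slc7a11 (chr3:50443609-50443863, minus strand, -250 to 5): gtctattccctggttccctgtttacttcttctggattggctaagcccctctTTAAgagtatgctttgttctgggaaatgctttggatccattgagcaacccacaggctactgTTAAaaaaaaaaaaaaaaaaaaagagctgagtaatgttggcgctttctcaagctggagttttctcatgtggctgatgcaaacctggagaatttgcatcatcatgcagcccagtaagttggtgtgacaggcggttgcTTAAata
Slc39a12 (chr2:14388148-14388413, plus strand, -250 to 16): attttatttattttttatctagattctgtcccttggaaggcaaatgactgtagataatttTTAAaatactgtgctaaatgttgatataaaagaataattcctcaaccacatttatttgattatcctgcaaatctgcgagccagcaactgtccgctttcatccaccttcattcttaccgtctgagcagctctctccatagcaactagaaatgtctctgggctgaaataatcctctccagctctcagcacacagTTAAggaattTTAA
Mlc1 (chr15:88978554-88978803, minus strand, -250 to -1): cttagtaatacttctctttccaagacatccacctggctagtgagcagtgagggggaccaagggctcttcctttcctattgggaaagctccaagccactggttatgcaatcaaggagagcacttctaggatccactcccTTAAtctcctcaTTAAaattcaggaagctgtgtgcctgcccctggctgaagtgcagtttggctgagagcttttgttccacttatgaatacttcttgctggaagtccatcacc
Cst3 (chr2:148875513-148875762, minus strand, -250 to -1): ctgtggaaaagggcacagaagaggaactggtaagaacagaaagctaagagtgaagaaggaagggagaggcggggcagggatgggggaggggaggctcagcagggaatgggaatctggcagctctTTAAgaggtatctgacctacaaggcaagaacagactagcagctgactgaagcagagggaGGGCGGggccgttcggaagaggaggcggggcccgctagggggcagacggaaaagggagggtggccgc

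In the Slc7a11 stretch the TTAA at -2, which spans the transcript start, held 370 insertions from 42 tables. The TTAA at -199 held 326 insertions from 40 tables. The one at -138, next to a run of A, held 44 from 23 tables. The 3 sites made up the 740 insertions of that window, and the middle one was hit far less often than its neighbours. In the Slc39a12 stretch the site at 13 held 19 insertions, the site at 3 held 13 and the site at -190 held 4. In the Mlc1 stretch the site at -112 held 13 insertions and the one at -100 held 5, and a further site at 46, outside the printed stretch, held 14. The single TTAA of the Cst3 window, at -126, held 22 insertions. A TTAA at -53 of the outer Atp13a4 start held 0.

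Tables differed in size and 3 animals stood apart from their groups, which touches several results below. The groups with insertions read from RNA ran from 1545951 and 2186743 insertions (C57bl6J), 600443 to 1505413 (GFAPCre), 208057 to 597230 (GFAPCreNeg), 443158 to 1364948 (Syn1Cre) and 97519 to 556145 (Syn1CreNeg) down to 2341 to 9601 (Frontflip_GFAPCreNeg). Tables held 108965 to 577609 insertions in Syn1Cre_SP1_P28, 86842 to 95331 in Syn1Cre_SP1_P10, 160631 to 205559 in Frontflip_GFAPCre, 24408 to 57014 in Rbp4Cre_TRAP and 42511 to 98197 in BrokenHeart. GFAPCreNeg animal 6 (208057 insertions) had 5518 IPM over all members against 2612 to 3067 in the other 5, and Syn1Cre animal 5 (443158) had 3272 against 1013 to 1322. Syn1Cre_SP1_P28 animal 4 (577609, the most in its group) had 1631 against 3773 to 4107. In 6 of 11 groups the animal with the fewest insertions had the highest member sum. The part of table size in the results was not tested.

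**Figure D1:**
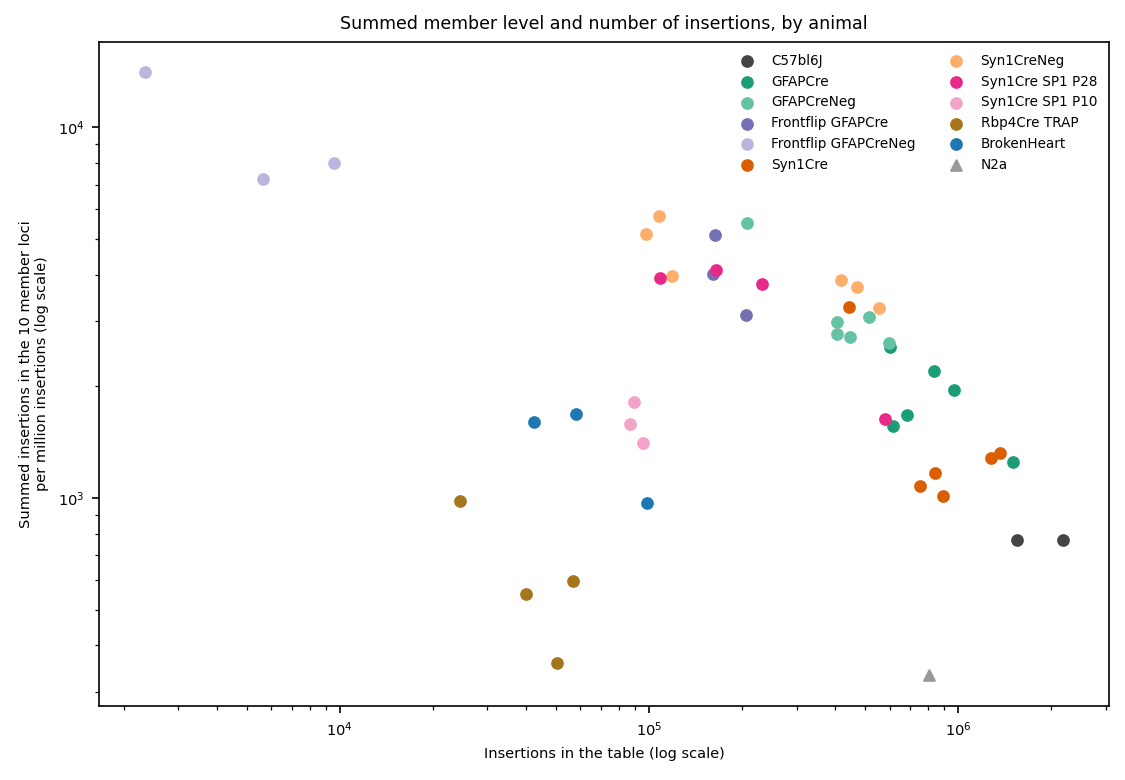
Summed level of the 10 member loci (IPM, log scale) against the number of insertions in the table (log scale), with 1 point per animal, coloured by group, and a triangle for the pooled N2a table. The Frontflip_GFAPCreNeg tables, with 2341 to 9601 insertions, sit highest, the C57bl6J tables, the largest, sit at 770 and 768, and the Rbp4Cre_TRAP, BrokenHeart and Syn1Cre_SP1_P10 tables lie low although they are small.

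Across groups the level of the 10 loci together was highest in the Frontflip groups, Syn1CreNeg, Syn1Cre_SP1_P28 and GFAPCreNeg, and lowest in C57bl6J, Rbp4Cre_TRAP and N2a. The summed level was 4283 ± 951 IPM (SD, n = 6) in Syn1CreNeg, 4084 ± 1011 (n = 3) in Frontflip_GFAPCre, 3357 ± 1159 (n = 4) in Syn1Cre_SP1_P28 and 3278 ± 1110 (n = 6) in GFAPCreNeg. It was 1869 ± 472 (n = 6) in GFAPCre, 1600 ± 206 (n = 3) in Syn1Cre_SP1_P10, 1523 ± 865 (n = 6) in Syn1Cre, 1416 ± 391 (n = 3) in BrokenHeart, 769 ± 1.51 (n = 2) in C57bl6J and 622 ± 262 (n = 4) in Rbp4Cre_TRAP. In that order the animals of neighbouring groups overlapped except between GFAPCreNeg and GFAPCre and between BrokenHeart and C57bl6J. Frontflip_GFAPCreNeg gave 9785 ± 3755 (n = 3), above every Syn1CreNeg animal, from 33 to 77 member insertions per animal. The N2a line, with 1 pooled table and no replicates, gave 332. For single members 88 of 100 neighbouring pairs of groups overlapped.

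**Figure D2:**
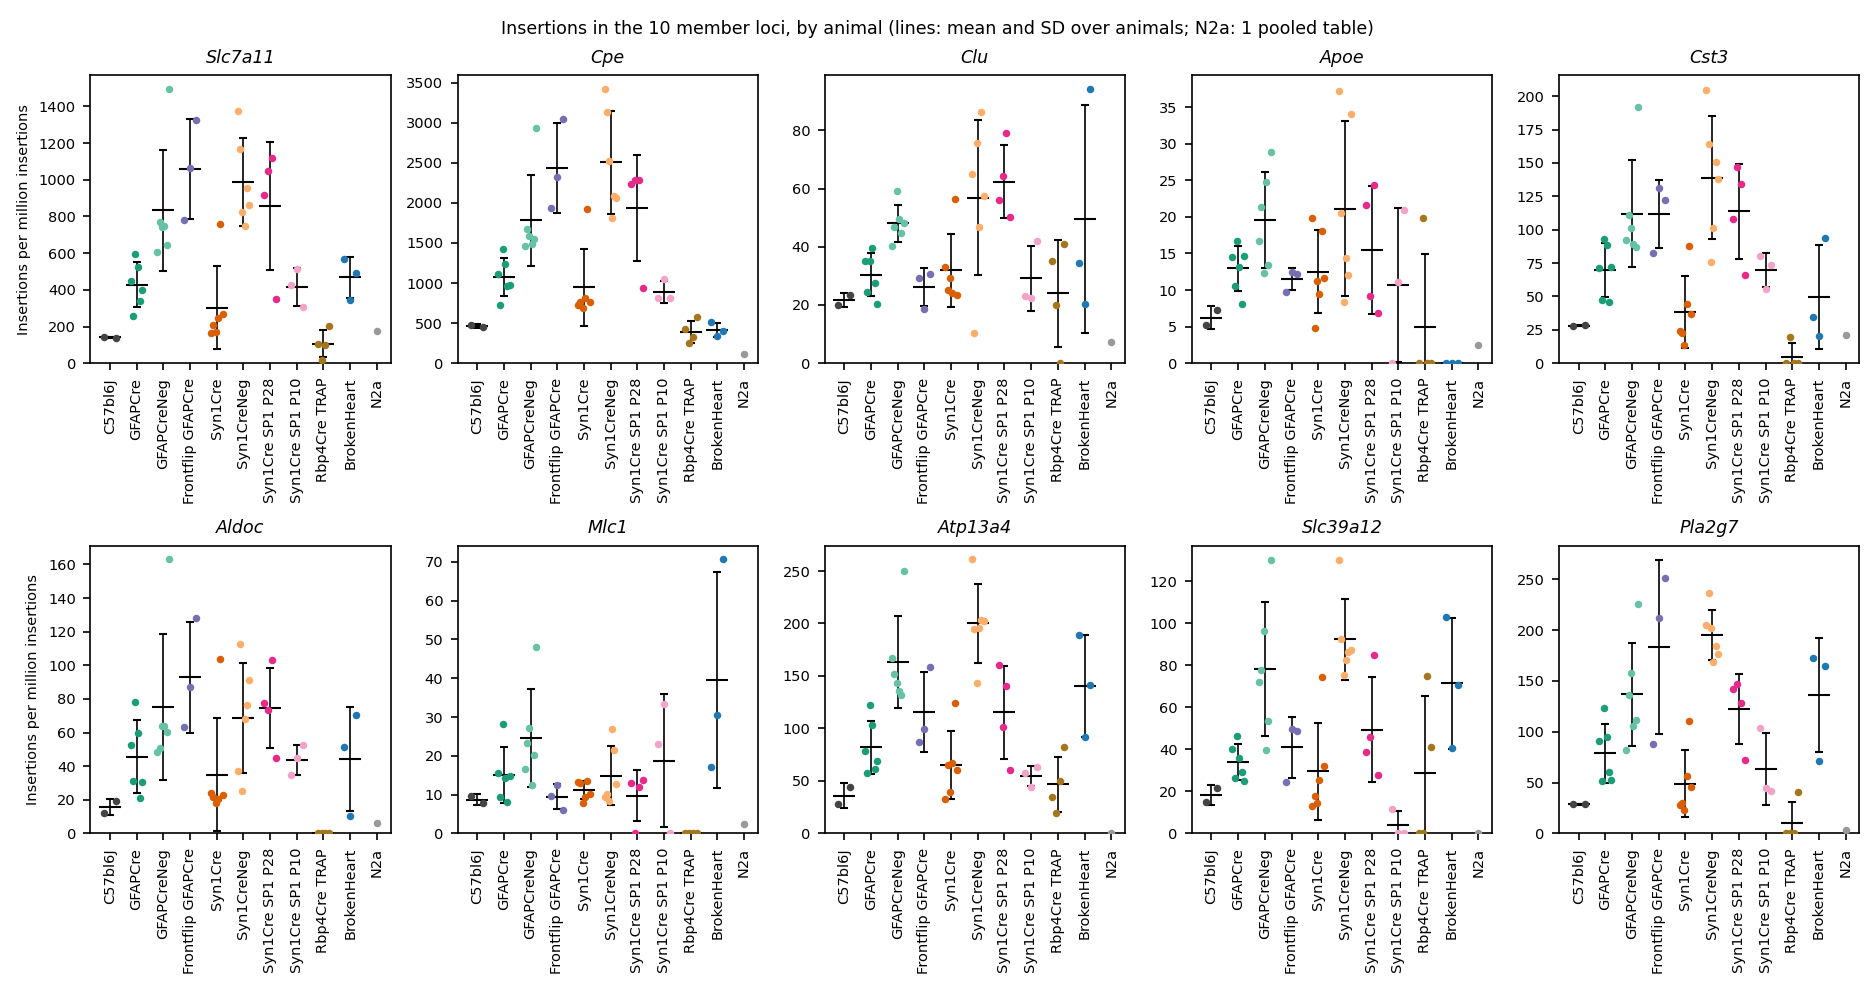
Insertions IPM insertions in each member locus, with 1 point per animal and the mean and SD of each group as lines; N2a is 1 pooled table, and Frontflip_GFAPCreNeg is left out because its tables are small. Points of GFAPCreNeg lie above those of GFAPCre for Slc7a11, Cpe, Clu and Atp13a4, C57bl6J points lie low, and 1 Syn1Cre animal stands above the rest for Slc7a11, Cpe, Clu, Aldoc and Slc39a12.

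Per kilobase of locus the members differed widely. In GFAPCreNeg, Cpe had 14.8 IPM per kb, 55.8 times the median over all loci, and Slc7a11 5.42, Cst3 4.71, Aldoc 3.04, Pla2g7 2.13 and Clu 1.45. Atp13a4 (0.930), Apoe (0.781), Slc39a12 (0.617) and Mlc1 (0.526) were lower, yet above the median locus (0.265). In C57bl6J, the Cpe density of 3.84 per kb was 13 times the median locus (0.296), while Atp13a4, Apoe, Mlc1 and Slc39a12 lay below it, at 0.205, 0.249, 0.187 and 0.144. Neighbouring genes lie within the added 10 kb of 5 loci (Gulo beside Clu, Apoc1 and Tomm40 beside Apoe, Spag5 and Pigs beside Aldoc, Ttll8 and Mov10l1 beside Mlc1, Tdrd6 beside Pla2g7), and insertions there could not be assigned to one gene.

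The GFAPCre and GFAPCreNeg comparison set animals of the astrocyte Cre line beside their Cre-negative controls. Of the 9 members that passed the filter on low counts, 7 were lower in GFAPCre animals and none was higher. Every GFAPCreNeg table (208057 to 597230 insertions) was smaller than every GFAPCre table (600443 to 1505413). Cre and table size therefore cannot be told apart here. The threshold throughout was an adjusted p (Benjamini-Hochberg over all loci tested) under 0.05 in edgeR's quasi-likelihood test. Over all 9201 loci of this fit 8.12% were called, 5.86% as lower. The 9 members had a median log2 fold change of -0.72, against 0.02 over all loci. As counts, the 10 loci held 9253 insertions in GFAPCre and 7828 in GFAPCreNeg, so the lower levels are shares of larger tables.

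Among the transporters and channels, Slc7a11 (chr3:50364936-50499087) had a lowest, median and highest level of 259, 424 and 596 IPM in GFAPCre and 609, 745 and 1495 in GFAPCreNeg. Every GFAPCre animal lay below every GFAPCreNeg animal, and the level was 1.91-fold lower (log2 fold change -0.94 ± 0.18 SE, adjusted p = 0.0013, n = 6 and 6). Atp13a4 (chr16:29389103-29544864), a P-type ATPase of the endosomal system, ran at 57.8, 73.8 and 122 against 132, 147 and 250. The groups again did not overlap, and the level was 1.95-fold lower (log2 fold change -0.97 ± 0.16, adjusted p = 0.000533). Slc39a12 (chr2:14388316-14494977), the zinc importer ZIP12 of brain, ran at 24.9, 32.6 and 46.6 against 39.5, 75.0 and 130. Its groups overlapped through the lowest GFAPCreNeg animal, yet it had the largest change among the members, 2.19-fold lower (log2 fold change -1.13 ± 0.20, adjusted p = 0.000757). Mlc1 (chr15:88955884-88982693) ran at 8.13, 14.5 and 28.3 against 12.4, 21.8 and 48.1, with much overlap, and did not pass (log2 fold change -0.64 ± 0.30, adjusted p = 0.19).

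Among the secreted proteins, Clu (chr14:65968483-65981548), the chaperone and lipid carrier clusterin, ran at 20.5, 31.3 and 39.6 in GFAPCre against 40.2, 47.4 and 59.1 in GFAPCreNeg. The groups met almost end to end without overlap, and the level was 1.56-fold lower (log2 fold change -0.64 ± 0.18, adjusted p = 0.0211). Cst3 (chr2:148871722-148875512), which encodes cystatin C, ran at 45.5, 71.7 and 93.3 against 87.3, 96.6 and 192. It overlapped at the edge and was 1.54-fold lower (log2 fold change -0.62 ± 0.18, adjusted p = 0.0295). Pla2g7 (chr17:43567994-43612202), the secreted enzyme that breaks down platelet-activating factor, ran at 51.1, 75.6 and 123 against 82.0, 124 and 226. It was 1.65-fold lower with overlap (log2 fold change -0.73 ± 0.20, adjusted p = 0.0221). Apoe (chr7:19696244-19701310) had too few insertions for the fit, at 8.13, 13.8 and 16.7 against 12.3, 19.1 and 28.8, with overlap.

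Of the enzymes, Cpe (chr8:64592542-64693109), the carboxypeptidase that trims neuropeptide and hormone precursors and is also released by astrocytes, had the highest levels of all members. It ran at 732, 1045 and 1422 in GFAPCre and 1467, 1570 and 2937 in GFAPCreNeg, without overlap, and was 1.65-fold lower (log2 fold change -0.72 ± 0.15, adjusted p = 0.00272). Aldoc (chr11:78323073-78327781), the brain aldolase of glycolysis and a common astrocyte and Purkinje cell marker, ran at 21.1, 42.0 and 78.3 against 48.6, 62.2 and 163 and did not pass (log2 fold change -0.56 ± 0.25, adjusted p = 0.177). The 4 members whose groups did not overlap (Slc7a11, Cpe, Clu and Atp13a4) stand beside 2.65% of all loci with GFAPCre wholly below.

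Leaving out GFAPCreNeg animal 6 kept 6 members past the threshold, all but Cst3, with Slc7a11 at -0.71 and Slc39a12 at -1.02. Without GFAPCre animal 2 or without GFAPCreNeg animal 3 only Slc7a11, Cpe, Atp13a4 and Slc39a12 passed, and the same 4 passed when the fit was held to animals from shared sequencing pools (Slc7a11 -1.04, Cpe -0.79, Atp13a4 -1.05, Slc39a12 -1.33). Other astrocyte markers moved alongside: the summed level of 18 markers ranged from 1406 to 2795 IPM in GFAPCre and from 2580 to 5176 in GFAPCreNeg, none of them was at 0 in either group, and 8 of the 17 in the fit were lower and 0 higher, among them Gja1 (connexin 43; log2 fold change -1.20 ± 0.18, adjusted p = 0.000242) and Ntsr2, a neurotensin receptor of astrocytes (-0.86 ± 0.20, adjusted p = 0.00727). Neuron markers summed to 4264 to 5080 in GFAPCre and 3441 to 4583 in GFAPCreNeg, oligodendrocyte markers to 289 to 384 and 311 to 423, microglia markers to 94.3 to 122 and 101 to 133, and endothelial markers to 176 to 296 and 242 to 490. By edgeR, 2 of 13 neuron markers in the fit were higher and 1 lower (Map2, -0.40 ± 0.09, adjusted p = 0.00403). Of 6 oligodendrocyte markers 1 was higher (Mbp, 0.47 ± 0.14, adjusted p = 0.0298) and 1 lower (Olig2). Of 2 endothelial markers 1 was lower (Slco1c1) and 0 higher, and 0 of 3 microglia markers passed (0 at an unadjusted p under 0.05, 0 in DESeq2). The microglial gene Tmem119 and the endothelial gene Ly6c1 were at 0 in GFAPCreNeg. The part of these shifts in the member result was not tested.

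In the wider pathways a few genes were lower and none was higher. Of the glutathione and cystine genes 1 of 10 in the fit (Gclc, which makes the glutathione precursor) was lower and 0 higher. Of the glycolysis genes 3 of 13 were lower and 0 higher, with Pygb, brain glycogen phosphorylase, at -0.72 ± 0.22 (adjusted p = 0.0385) and Pfkm, a phosphofructokinase, at -0.54 ± 0.15 (adjusted p = 0.022). Of the zinc transporters 3 of 12 were lower and 0 higher, with the exporters Slc30a5 at -1.01 ± 0.24 (adjusted p = 0.00701) and Slc30a7 at -0.56 ± 0.15 (adjusted p = 0.0179). Of 8 partners of MLC1 in astrocyte endfeet, 3 (Hepacam, Gja1 and Gjb6) were lower and 0 higher. DESeq2 called 0 of the glutathione and cystine genes, 2 of the glycolysis genes, 1 of the zinc transporters and 3 of the MLC1 partners. The last list shares Gja1, Gjb6 and Aqp4 with the astrocyte markers. In edgeR 0 of 13 lipid transport genes passed (1 at an unadjusted p under 0.05, 0 in DESeq2), as did 0 of 10 peptide processing genes (2 and 0) and 0 of 4 genes of platelet-activating factor and phospholipases (3 and 0). Of the cathepsins and cystatins and of the P5 ATPases, 2 each were in the fit, with 0 past either threshold and 0 in DESeq2.

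**Figure D3:**
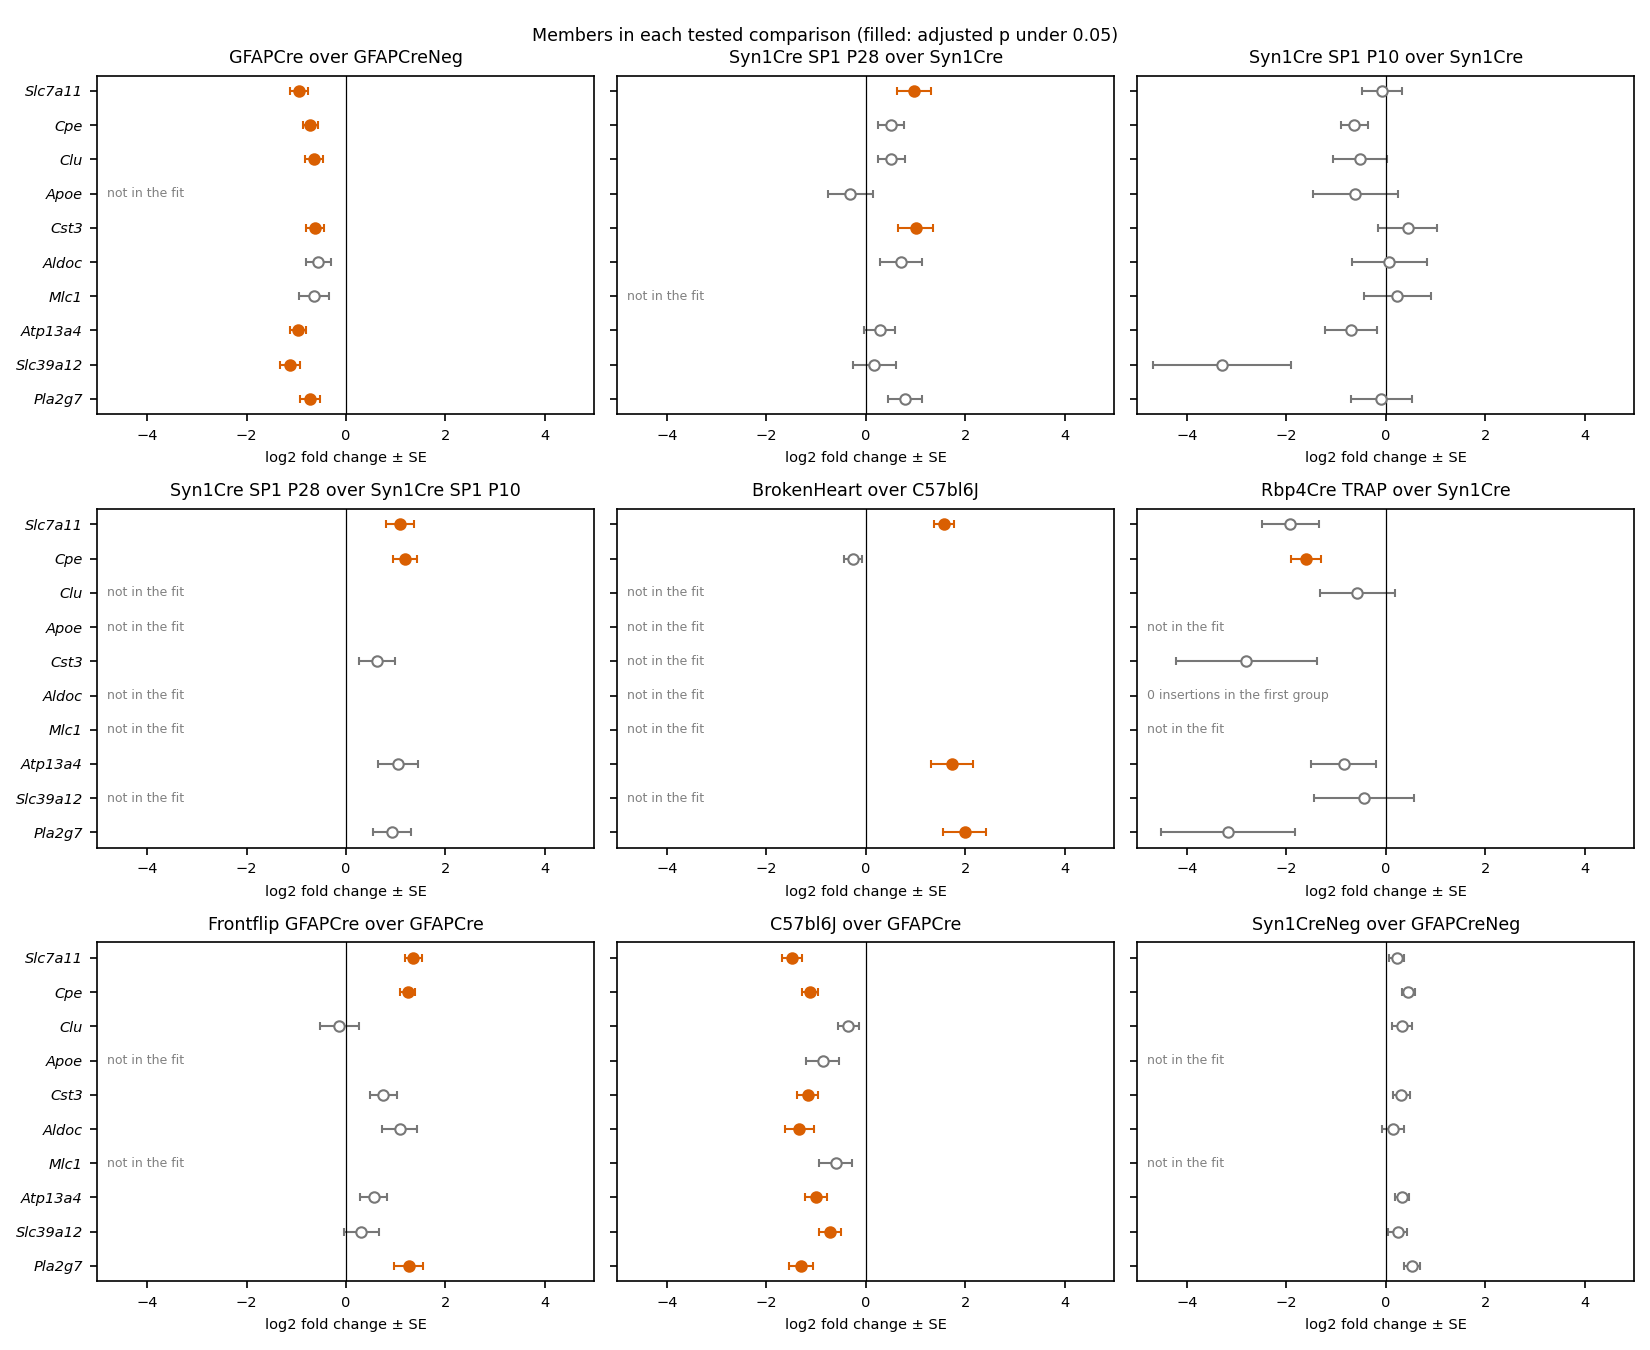
Log2 fold change with its SE for each member in each of the 9 tested comparisons; filled points have an adjusted p under 0.05 in edgeR. Members left out by the filter on low counts are marked, and so is Aldoc in the Rbp4Cre_TRAP panel, which had 0 insertions there; GFAPCre over GFAPCreNeg and C57bl6J over GFAPCre have 7 filled points each, all below 0.

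With the Frontflip construct in GFAPCre mice the levels of 3 members lay above those of GFAPCre animals, while the other 5 in the fit did not pass. In all 10523 loci 1.75% were called, 1.50% as higher, and the members' median log2 fold change was 0.91 against -0.02. Slc7a11 was 783, 1065 and 1328 IPM in the 3 Frontflip_GFAPCre animals, all above the highest GFAPCre animal (596), and was 2.57-fold higher (log2 fold change 1.36 ± 0.18, adjusted p = 9.62e-05). Cpe was 1931, 2328 and 3041, above all GFAPCre animals (at most 1422), and 2.36-fold higher (1.24 ± 0.15, adjusted p = 2.13e-05). Groups that did not overlap with the first above made up 4.49% of all loci. Pla2g7 was 87.6, 212 and 251 against 51.1 to 123, with 1 animal inside the GFAPCre range, and 2.40-fold higher (1.26 ± 0.29, adjusted p = 0.0173). Aldoc, at 63.2, 87.2 and 128, and Cst3, at 82.7, 131 and 122, had log2 fold changes of 1.08 ± 0.35 and 0.75 ± 0.27 that did not pass (adjusted p = 0.119 and 0.169). Clu, at 29.2, 18.7 and 30.6, lay within the GFAPCre range in 2 animals and below it in 1.

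Table size and sequencing pool cannot be told apart from the construct here: tables of Frontflip_GFAPCre held 160631 to 205559 insertions against at least 600443 in GFAPCre, and no sequencing pool held both groups. Other astrocyte markers were also higher, 6 of 18 in the fit with 0 lower, and their sum ranged from 2851 to 4167 against 1406 to 2795. Of the partners of MLC1, 5 of 8 were higher and 0 lower, with the sodium pump subunit Atp1b2 at 1.05 ± 0.26 (adjusted p = 0.0256). In edgeR 0 of 13 neuron markers passed (3 at an unadjusted p under 0.05, 1 in DESeq2), and so did 0 of 11 glutathione and cystine genes (2 and 0) and 0 of 13 glycolysis genes (3 and 0). Frontflip_GFAPCreNeg, the Cre-negative control of this construct, had 52 insertions in Slc7a11, 83 in Cpe, 7 in Atp13a4 and at most 3 in any other member over its 3 animals. Its levels were 2708, 4272 and 2824 in Slc7a11 and 4270, 8543 and 3883 in Cpe, above those of all 3 Frontflip_GFAPCre animals. This pair of groups was not tested here.

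C57bl6J animals, with Cre-independent virus, had lower levels than GFAPCre animals for 7 of 10 members. Over all 13252 loci 12.5% were called, 5.50% as lower, and the members' median log2 fold change was -1.06 against -0.01. Slc7a11 was 144 and 140 IPM in the 2 C57bl6J animals, below the lowest GFAPCre animal (259), and 2.79-fold lower (log2 fold change -1.48 ± 0.20, adjusted p = 1.3e-05). Cpe, at 480 and 447 against at least 732, was 2.17-fold lower (-1.12 ± 0.16, adjusted p = 3.45e-05). Both C57bl6J animals gave nearly the same level for each of these genes.

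Of the secreted proteins, Cst3 was 27.8 and 28.4 against at least 45.5, 2.25-fold lower (-1.17 ± 0.21, adjusted p = 0.000417), with the caveat that these GFAPCre animals were the higher group in the comparison that chose it. Pla2g7 was 28.5 and 29.3 against at least 51.1, 2.47-fold lower (-1.30 ± 0.24, adjusted p = 0.00039). Clu, at 20.1 and 23.3, overlapped with GFAPCre (from 20.5), and Apoe, at 5.17 and 7.32 against at least 8.13, did not overlap but did not pass (-0.87 ± 0.33, adjusted p = 0.0867). Mlc1, at 9.70 and 7.77, did not pass either (-0.61 ± 0.34, adjusted p = 0.257).

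Aldoc was 12.3 and 19.2 against at least 21.1, 2.53-fold lower (-1.34 ± 0.29, adjusted p = 0.00241). Atp13a4 was 27.8 and 44.4 against at least 57.8, 2.01-fold lower (-1.0 ± 0.22, adjusted p = 0.00223). Slc39a12 was 14.9 and 21.5 against at least 24.9, 1.65-fold lower (-0.73 ± 0.22, adjusted p = 0.0285). In 8 members the C57bl6J animals lay wholly below, as in 15.1% of all loci, and without C57bl6J animal 1 only Slc7a11, Cpe, Cst3 and Pla2g7 passed, with the lone C57bl6J animal assumed to vary like the GFAPCre animals. Of the partners of MLC1 7 of 8 were lower and 0 higher (Gjb6, connexin 30, -1.49 ± 0.26, adjusted p = 0.000295; Aqp4, the endfoot water channel, -1.46 ± 0.25, adjusted p = 0.000245), and of the other astrocyte markers 11 of 18 were lower and 0 higher. Neuron markers gave 7 higher and 1 lower of 18, with the interneuron genes Sst at 2.76 ± 0.25 (adjusted p = 1.32e-08) and Gad2 at 2.53 ± 0.19 (adjusted p = 1.35e-10). Sst was low in GFAPCre, at 1.63 to 11.7 IPM, so the C57bl6J animals may have carried it past the filter on low counts. Oligodendrocyte markers gave 1 higher and 2 lower of 8, with the lineage factors Olig1 at -1.85 ± 0.32 (adjusted p = 0.000208) and Olig2 at -1.73 ± 0.34 (adjusted p = 0.000971). These 4 shifts were larger than that of any member, and their part in the member result was not tested. Peptide processing genes gave 4 of 14 higher and 0 lower, led by the carboxypeptidase Cpm at 1.16 ± 0.18 (adjusted p = 5.05e-05). The C57bl6J tables were larger than every GFAPCre table, and the part of this was not tested. Counts in this and the first comparison share the GFAPCre animals.

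Slc7a11, Atp13a4 and Pla2g7 had higher levels (IPM) in BrokenHeart animals, read from DNA, than in C57bl6J animals, and Cpe did not differ past the threshold. Only 1878 loci and 4 members passed the filter here, of which 39.9% of loci were called, 18.7% as higher. Atp13a4 and Pla2g7 entered the fit only through BrokenHeart animals, where they were high. Their calls as higher are thus partly set by the filter on low counts and are no independent support. Slc7a11 was 566, 346 and 494 IPM against 144 and 140, 2.99-fold higher (log2 fold change 1.58 ± 0.20, adjusted p = 1.59e-07). Atp13a4 was 189, 91.7 and 141 against 27.8 and 44.4 (1.74 ± 0.42, adjusted p = 0.00131), and Pla2g7 was 172, 71.3 and 165 against 28.5 and 29.3 (1.99 ± 0.43, adjusted p = 0.000426). In these 3 genes each BrokenHeart animal lay above both C57bl6J animals, as in 28.9% of all loci. Cpe was 515, 336 and 400 against 480 and 447 (-0.26 ± 0.18, adjusted p = 0.243), so that in BrokenHeart the Slc7a11 level was close to that of Cpe while in C57bl6J it was well below.

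The BrokenHeart values rest on few insertions: 88 in Slc7a11, 80 in Cpe, 26 in Atp13a4, 24 in Pla2g7, 13 in Slc39a12 and 0 in Apoe, where 3 insertions over the group would be 15.1 IPM. Without either C57bl6J animal, or without BrokenHeart animal 1, only Slc7a11 passed, at 1.11 to 1.52. With 1 C57bl6J animal left, its spread is taken to be that of the BrokenHeart animals. Of the MLC1 partners both that were in the fit were higher, Gjb6 at 2.49 ± 0.42 (adjusted p = 1.43e-05) and Gja1 at 1.79 ± 0.47 (adjusted p = 0.00252). Both had entered the fit only through BrokenHeart animals as well. Readout (DNA or RNA), virus and library preparation differ together here and cannot be told apart.

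In Syn1Cre animals with SP1 at 28 days, 2 of 9 members were higher than in Syn1Cre animals, in a fit in which 51.5% of all 12050 loci were called, 26.2% as higher. Slc7a11 was 918, 1046, 1118 and 348 IPM in the 4 animals, against a lowest, median and highest level of 167, 228 and 758 in Syn1Cre. The groups overlapped, through SP1 animal 4 and Syn1Cre animal 5, and the level was 1.96-fold higher (log2 fold change 0.97 ± 0.34, adjusted p = 0.0195). Cst3 was 108, 147, 134 and 65.8 against 13.4, 30.3 and 88.0, overlapping in the same way, and 2.00-fold higher (1.00 ± 0.35, adjusted p = 0.0208). Cst3 had been chosen for its low level in these same Syn1Cre animals, so its call draws on the values that chose it. Pla2g7 was 142, 147, 128 and 72.7 against 23.5, 37.9 and 111 (0.78 ± 0.34, adjusted p = 0.0558). Cpe was 2238, 2285, 2284 and 940 against 688, 767 and 1925 (0.51 ± 0.26, adjusted p = 0.106). The share of members called was below the background.

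The other members did not pass, from Aldoc at 0.71 ± 0.42 to Apoe at -0.31 ± 0.46 (0.16 with total insertions as library size). In 0 of 10 members did every SP1 animal lie above every Syn1Cre animal, while 31.5% of all loci showed that. Members with GGGCGG in a promoter window had log2 fold changes of 1.00 (Cst3), 0.78 (Pla2g7), 0.71 (Aldoc) and 0.28 (Atp13a4), and those with a window but no such motif 0.97 (Slc7a11), 0.17 (Slc39a12) and -0.31 (Apoe), with Mlc1 not in the fit. These values overlap and are a description only.

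The member counts here turned on the scaling and on single animals. With total insertions as library size in place of TMM factors 7 members were higher. The median over all loci moved from -0.06 to 0.42, and the share of called loci that were higher went from 50.9% to 80.4%. DESeq2 called 0, with 0.96 for Slc7a11 and 1.03 for Cst3. Without SP1 animal 1, 2 or 3 in turn 0 passed, without SP1 animal 4 there were 4, without Syn1Cre animal 5 there were 6, and against Syn1Cre animals 1 to 3 alone, which have a sequencing pool of their own, 7, and against animals 4 to 6 alone 0. No pool held SP1 and Syn1Cre animals together, so pool and construct cannot be told apart.

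In the wider lists, calls ran in both directions. Of 18 glycolysis genes in the fit 12 were higher and 1 lower, with Pfkl, the liver phosphofructokinase, at 2.22 ± 0.29 (adjusted p = 7.07e-07) and Tpi1, triosephosphate isomerase, at 2.17 ± 0.25 (adjusted p = 8.86e-08), while Aldoc itself did not pass. Of 12 glutathione and cystine genes 3 were higher and 0 lower, with Ggt7 at 1.78 ± 0.21 (adjusted p = 9.12e-08) and Gpx4, the lipid peroxide reductase, at 1.74 ± 0.21 (adjusted p = 1.92e-07). Of 13 peptide processing genes 2 were higher and 7 lower, with Chga, a granin, at 1.91 ± 0.27 (adjusted p = 2.21e-06) and the protease Pcsk5 at -1.49 ± 0.19 (adjusted p = 5.17e-07). Other astrocyte markers gave 3 higher and 0 lower of 18, and neuron markers 4 higher and 8 lower of 18. Over all loci of this fit 51.5% were called, 26.2% as higher, and whether any of these lists differed from those shares was not tested.

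At 10 days SP1 animals had 0 of 10 members past the threshold against Syn1Cre by edgeR, in a fit with 40.7% of 12784 loci called; 2 members (Cpe and Slc39a12) had an unadjusted p under 0.05, and DESeq2 called 1 (Slc39a12). Cpe was 818, 1047 and 808 IPM, inside the Syn1Cre range (log2 fold change -0.63 ± 0.28, adjusted p = 0.0737). Slc39a12 was 11.5, 0 and 0, below every Syn1Cre animal, as 13.5% of all loci were, from 1 insertion in the SP1 group and 147 in Syn1Cre. Its ratio was 0.139, with an exact 95% interval of 0.00351 to 0.789 that covers counting error only. Slc39a12 met the filter on low counts only through Syn1Cre animals, where it was higher. Its unadjusted p and its DESeq2 call are thus partly set by that filter and are no independent support. Slc7a11, at 426, 512 and 304, lay within the Syn1Cre range. The scaling decides directions here: the median over all loci was -0.26 with TMM factors and 0.27 with total insertions, and that of the members -0.31 and 0.22, and 49.3% or 76.1% of called loci were higher.

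Between the SP1 ages Slc7a11 and Cpe, the 2 most often hit members, were higher at 28 than at 10 days, of 5 members in the fit. Of 3458 loci 11.1% were called, 7.40% as higher. Slc7a11 was 918, 1046, 1118 and 348 against 426, 512 and 304, 2.13-fold higher (log2 fold change 1.09 ± 0.29, adjusted p = 0.0165), and Cpe was 2238, 2285, 2284 and 940 against 818, 1047 and 808, 2.28-fold higher (1.19 ± 0.25, adjusted p = 0.00573). Animal 4 of the older group fell among the younger animals in both genes. Cst3, Atp13a4 and Pla2g7 did not pass, at 0.63 ± 0.36, 1.05 ± 0.41 and 0.93 ± 0.38. They met the filter on low counts only through the 28-day animals, where they were higher. A call of them as higher, here or with an animal left out, is thus no independent support. Without animal 4 of the 28-day group 4 of the 5 passed, and without animal 3 of the 10-day group 0 did, with 0.87 for Slc7a11 and 1.09 for Cpe. Of the MLC1 partners 2 of 6 were higher and 0 lower (Gjb6, 2.07 ± 0.41, adjusted p = 0.00571). Gjb6 too met the filter only through the 28-day animals. Other astrocyte markers gave 3 of 8 higher and 0 lower (Gjb6, Slc1a3 and Slc1a2, the last at 1.00 ± 0.24, adjusted p = 0.0101), and neuron markers 3 higher and 1 lower of 12 (Syt1 at 0.96 ± 0.23, adjusted p = 0.0084; Gad2 at -1.09 ± 0.32, adjusted p = 0.028). Their part in the member result was not tested. With total insertions as library size 44.4% of called loci were higher, against 66.5%. Both SP1 comparisons with Syn1Cre share the Syn1Cre animals.

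The Rbp4Cre_TRAP libraries, from ribosomes of layer 5 neurons if the label is read in its usual sense, held few insertions in any member, and Cpe was lower than in Syn1Cre. In this fit 2.09% of 10690 loci were called, 1.91% as lower. Cpe was 421, 258, 324 and 574 IPM, all below the lowest Syn1Cre animal (688), and 3.02-fold lower (log2 fold change -1.60 ± 0.30, adjusted p = 0.00179); groups with Rbp4Cre_TRAP wholly below made up 6.96% of loci. Slc7a11 was 105, 19.9, 99.8 and 205, against 167 to 758 (-1.92 ± 0.57, adjusted p = 0.0646), and it passed without Syn1Cre animal 5 (-1.48) and with DESeq2 (-1.79).

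Of the secreted proteins, Cst3, Pla2g7 and Apoe had 1 insertion each in these libraries and Clu had 4. Counts this low do not set Clu apart from the others. Cst3 had 1 insertion over the 4 animals (ratio to Syn1Cre 0.165, exact 95% interval 0.00417 to 0.933), Pla2g7 had 1 (0.129, 0.00325 to 0.724) and Apoe 1 (0.499, 0.0124 to 2.88). Aldoc and Mlc1 had 0, where 3 insertions over the group would be 17.5 IPM. Against this floor Aldoc was at least 2.00-fold lower than in Syn1Cre (35.0 IPM), a bound that rests on Syn1Cre animal 5 and is 1.22-fold without it (21.3 IPM), and no fold is given for Mlc1 (11.2 in Syn1Cre). The median of the 8 members in the fit was -1.76 from fitted values and -1.30 with Aldoc at its bound, against -0.31 over all loci (-0.07 with total insertions as library size, when 42.6% in place of 8.52% of called loci were higher). Cst3, Aldoc, Pla2g7, Slc39a12 and Clu met the filter on low counts only through Syn1Cre animals. The median is thus partly set by that filter and is no independent support. Clu, with 4 insertions (24 ± 18.3 IPM, SD, n = 4, against 31.9 ± 12.6, n = 6, in Syn1Cre), and Slc39a12, with 4, gave -0.57 ± 0.75 and -0.44 ± 1.01.

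Of the other astrocyte markers in Rbp4Cre_TRAP, 0 of 15 in the fit were higher and 2 lower, Slc1a3 (a glutamate transporter) at -2.66 ± 0.64 (adjusted p = 0.0216) and Slc4a4 (a bicarbonate cotransporter) at -1.42 ± 0.35 (adjusted p = 0.0276). Slc1a3 met the filter on low counts only through Syn1Cre animals, where it was higher, so its call is no independent support. The sum of all 18 astrocyte markers was 710 ± 219 IPM (SD, n = 4) against 1651 ± 868 (n = 6), with Gjb6 and Ntsr2 at 0. Neuron markers summed to 5647 ± 697 against 4927 ± 261, with the interneuron genes Gad1 and Slc32a1 at 0. Tissue (whole forebrain or cortex), purification and line differ together between these groups and cannot be told apart.

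Between the Cre-negative groups of both lines no member passed. In Syn1CreNeg against GFAPCreNeg edgeR called 0 of 8 members, 3 (Cpe, Atp13a4 and Pla2g7) had an unadjusted p under 0.05, DESeq2 called 0, and 0.0426% of 7038 loci were called. Cpe ran at 1811, 2310 and 3424 IPM against 1467, 1570 and 2937 (log2 fold change 0.45 ± 0.13, adjusted p = 0.134). Pla2g7 ran at 169, 193 and 236 against 82.0, 124 and 226 (0.52 ± 0.16, adjusted p = 0.168). All 8 changes were above 0, from 0.15 for Aldoc, and without GFAPCreNeg animal 6, whose levels were high, 4 members passed (Slc7a11 0.41, Cpe 0.61, Atp13a4 0.42, Pla2g7 0.64). These Syn1CreNeg animals were the higher group in the comparison that chose Pla2g7, Atp13a4 and Slc39a12. Results for those genes here therefore draw on the values that chose them.

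For Syn1Cre the members' levels are a description, since they helped to choose the genes. As counts, the 10 loci held 7597 insertions in Syn1Cre and 6771 in Syn1CreNeg. Pla2g7 ran at 23.5, 37.9 and 111 IPM in Syn1Cre and at 169, 193 and 236 in Syn1CreNeg, with no overlap, a log2 fold change of -2.04 ± 0.24. Atp13a4 ran at 33.2, 63.2 and 124 against 143, 199 and 261 (-1.70 ± 0.21), and Slc39a12 at 13.3, 21.8 and 74.5 against 75.6, 86.6 and 130 (-1.74 ± 0.28), also without overlap. Syn1Cre animal 5 was the highest animal of its group in each of these genes. Cst3 (-1.92 ± 0.28), Slc7a11 (-1.72 ± 0.27), Cpe (-1.40 ± 0.21), Aldoc (-1.37 ± 0.34) and Clu (-1.06 ± 0.25) lay below 0 with overlap. The 3 members without overlap stand beside 3.47% of 8610 loci that lay wholly below in the same way. Against GFAPCre, the 10 members ranged from -0.99 ± 0.27 for Cst3 and -0.80 ± 0.27 for Pla2g7 to -0.10 ± 0.20 for Clu, all with overlapping animals, beside 0.502% of 11550 loci with Syn1Cre wholly below.

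Within Slc7a11 and Slc39a12, insertions gathered at the listed transcript start, which was not so in every group in Cst3. In Cst3 the bases within 5 kb of the start make up 42.0% of the locus and held 35.2% of insertions in C57bl6J, 40.9% in GFAPCre, 42.9% in GFAPCreNeg and 55.1% in Syn1Cre. In Slc7a11 the bases within 5 kb of the listed start make up 6.49% of the locus and held 63.0% of insertions in C57bl6J, 66% in GFAPCre, 67.2% in GFAPCreNeg, 67.5% in Syn1Cre, 73.6% in Frontflip_GFAPCre and 59.1% in BrokenHeart. The share was thus high in every group, including N2a (76.8% of 142). The position with insertions in most tables was a TTAA 269 bases upstream of the listed Slc7a11 start (375 insertions in 43 of 47 tables). It was followed by TTAAs at 1830, downstream of that start (410 insertions in 42 tables), and at -2 (370 in 42). A site in Cpe at chr8:64686115 (337 insertions in 42 tables) and a Slc7a11 site 611 bases upstream of the listed start (327 in 42) completed the top 5. That start, at chr3:50443613 on the minus strand, lies inside the Slc7a11 gene body (chr3:50364936-50499087). The sites upstream of it are therefore in the gene body too. Over its whole locus Slc7a11 had 503 positions with an insertion, 31.8% of them hit in only 1 row.

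For Slc39a12 the share near the start differed more between groups. It was 41.4% of 70 insertions in C57bl6J, 69.2% of 172 in GFAPCre, 79.9% of 189 in GFAPCreNeg, 66% of 147 in Syn1Cre, 82.6% of 155 in Syn1CreNeg and 90.9% of 44 in Syn1Cre_SP1_P28, from 7.90% of the locus. As levels, insertions within 5 kb of the start were 7.29 IPM in C57bl6J, 23.1 ± 10.4 (SD, n = 6) in GFAPCre and 63.1 ± 32.8 (n = 6) in GFAPCreNeg, while those farther away were 10.9, 10.8 ± 3.15 and 15 ± 4.60. The group differences thus lay mostly near the start. One TTAA 1611 bases inside the gene held 149 insertions, 18.2% of the locus. Mlc1 gave the like picture, with 3.12, 11.2 ± 6.46 and 22 ± 12.3 near the start in the same 3 groups and 5.62, 3.89 ± 2.33 and 2.60 ± 1.92 away from it, and Apoe gave 2.89, 8.80 ± 3.30 and 17 ± 4.38 against 3.35, 4.16 ± 2.01 and 2.55 ± 2.30. In Atp13a4 both parts differed, at 40.2 ± 15.1 and 85.4 ± 27.6 near a start and 41.8 ± 12 and 78 ± 19.2 away from one in GFAPCre and GFAPCreNeg. These splits were looked at after the values were seen and have no test.

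**Figure D4:**
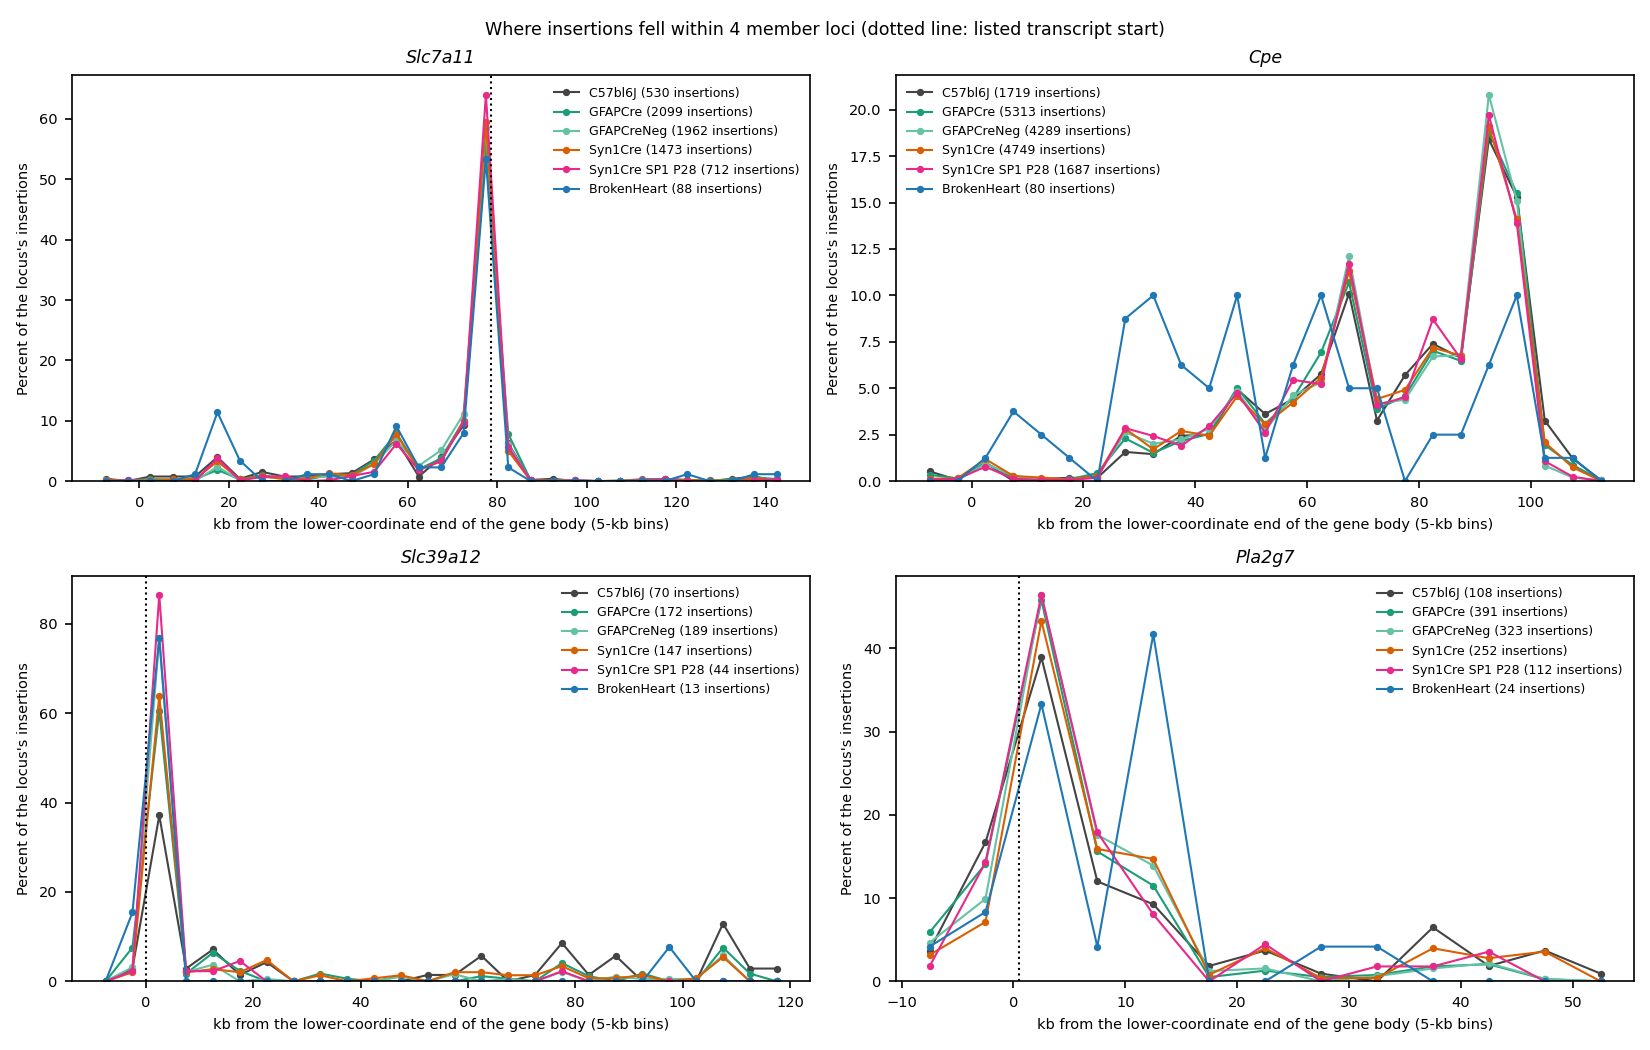
Share of a locus's insertions (percent) in 5-kb bins along 4 member loci, in kb from the lower-coordinate end of the gene body, for 6 groups, with the number of insertions in the legend and the listed transcript start as a dotted line (none was listed for Cpe). Slc7a11 and Slc39a12 peak at their starts in all 6 groups, Cpe spreads over most of its locus, and BrokenHeart follows another profile than the other groups in Cpe and Pla2g7, from 80 and 24 insertions.

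Among the genes with the pattern most like that of the members were Sparcl1 (Pearson r = 0.998 with the summed members, over the 10 group means of log2(IPM + 1), Frontflip_GFAPCreNeg left out), Pamr1 (0.992), Cuedc1 (0.986) and Ptn (0.985), out of 10796 loci at or above the median level. The group means share their total insertions and the members were chosen partly on some of these groups, so the likeness is a description. Among the members themselves, r with the sum, of which each is a part, ranged from 0.97 for Slc7a11 and 0.95 for Cpe to 0.58 for Slc39a12 and 0.50 for Mlc1. Mlc1 was highest in BrokenHeart, at 39.4 ± 27.8 IPM (SD, n = 3) from 7 insertions, and Clu in Syn1Cre_SP1_P28, at 62.4 ± 12.5 (SD, n = 4). In both genes the animals overlapped with those of the next group. With Frontflip_GFAPCreNeg left out, the sum was highest in Syn1CreNeg, while Slc7a11 (1058) and Aldoc (93.0) were highest in Frontflip_GFAPCre. A peak elsewhere than that of the sum was thus not particular to Mlc1 and Clu.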

How the data were processed

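Each deposited table lists insertions with chromosome, start, end, read counts, strand and barcode. The read counts are raw counts as deposited by the authors, judged from their values, and were used only for the alternative that asks for at least 2 reads. The submitters' processing notes name mm10, Novoalign and Bowtie2, without roles or versions. Per the labels, all parts of one cortex are merged in 1 deposited table. Replicates, groups and sequencing pools were taken from the labels. Starts in the BrokenHeart tables were moved by 1 base, after which between 51.6% and 53.8% lay on C57bl6J positions, against at most 0.456% at other offsets.

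Rows were counted in each protein-coding gene body of RefSeq GRCm38.p6 with 10 kb on each side. Neighbouring loci can share insertions. Loci were tested with edgeR 4.0.16 (glmQLFit and glmQLFTest, R 4.3.3) with total insertions as library size, TMM factors and filterByExpr, only the 2 groups compared in each fit, and Benjamini-Hochberg adjustment over all loci of that fit. SE is the absolute log2 fold change divided by the square root of F. The code was tested on simulated counts. Levels are means ± SD over animals. DESeq2 1.42.0, no TMM factors, no filter, distinct positions, at least 2 reads, the gene body alone, a replicate block, single pools and leaving out each animal were the alternatives. The 10 members were named in every group. From each pathway or marker list at most 2 loci were named, those with the largest absolute log2 fold change among loci past the threshold whose groups did not overlap, and otherwise genes named within a count of 5 or fewer. Like genes and sites were taken from the top 5 of each measure. Some results on named genes are not reported here. The members and lists were chosen with earlier results of these data known. Intervals and floors of 3 counts cover counting error only, and PCR reads are not independent molecules. Exons and introns were not annotated here.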

Additional observations from a re-analysis of the deposited data

Results flagged for a closer look

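In groups of 4 to 6 animals, 58 sets of values were screened for an animal whose gap to the nearest other animal was large against the range of its group, a screen in which chance marks about 1 in 20. GFAPCreNeg animal 6, which also had the smallest table of its group, stood high in Slc7a11 (1495 IPM, insertions per 1000000 insertions of the table, against 609 to 772 in the others), Cpe (2937 against 1467 to 1676), Cst3 (192 against 87.3 to 111), Aldoc (163 against 48.6 to 64.2), Atp13a4 (250 against 132 to 167) and the sum of the 10 members (5518 against 2612 to 3067). Syn1Cre animal 5, again with the smallest table, stood high in Slc7a11 (758 against 167 to 271), Cpe (1925 against 688 to 815), Clu (56.4 against 23.4 to 33.2), Aldoc (104 against 17.9 to 23.9), Slc39a12 (74.5 against 13.3 to 32.0) and the sum (3272 against 1013 to 1322). Syn1Cre_SP1_P28 animal 4, with the largest table of its group, stood low in Cpe (940 against 2238 to 2285) and the sum (1631 against 3773 to 4107).

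Single values also stood apart. Mlc1 was 28.3 in GFAPCre animal 3 against 8.13 to 15.5, and 0 in Syn1Cre_SP1_P28 animal 2 against 12.1 to 13.9. Slc39a12 was 130 in Syn1CreNeg animal 1 against 75.6 to 92.3.

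The N2a neuroblastoma table, which enters no comparison and has no replicates, held insertions in several members above the level of 3 counts: Slc7a11 at 176 IPM, Cpe at 113, Cst3 at 21.1, Clu at 7.44 and Aldoc at 6.20. Atp13a4 and Slc39a12 held 0 in this table of 806653 insertions.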

How the results depend on the processing

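The counts of members past the threshold moved by over 1.5 times, or from or to 0, in these settings, and the cause was not tested. For GFAPCre over GFAPCreNeg (7) animals with shared pools gave 4, and leaving out 1 animal gave 4 to 9. For Syn1Cre_SP1_P28 over Syn1Cre (2) total insertions as library size gave 7, DESeq2 0, no low-count filter 4, distinct positions 4, at least 2 reads 1, the gene body alone 4, the replicate block 6, Syn1Cre animals 1 to 3 alone 7 and 4 to 6 alone 0, and leaving out 1 animal 0 to 6. For Syn1Cre_SP1_P10 over Syn1Cre (0) DESeq2 gave 1, no filter 2, at least 2 reads 1, the replicate block 2 and each set of Syn1Cre animals 2 (Slc7a11 and Cst3 higher against 1 to 3, Cpe and Atp13a4 lower against 4 to 6), and leaving out 1 animal 0 to 2. For the SP1 ages (2) distinct positions gave 0, the replicate block 4 and leaving out 1 animal 0 to 4. Leaving out 1 animal gave 1 to 3 for BrokenHeart over C57bl6J (3), 4 to 7 for C57bl6J over GFAPCre (7) and 0 to 4 for Syn1CreNeg over GFAPCreNeg (0). For Rbp4Cre_TRAP over Syn1Cre (1) DESeq2 gave 2, no filter 4, at least 2 reads 2 and leaving out 1 animal 1 to 2.

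Log2 fold changes that changed sign were, in Syn1Cre_SP1_P28 over Syn1Cre, Apoe with total insertions (0.16) and without single animals (-0.59 to 0.27), Atp13a4 (-0.12) and Slc39a12 (-0.39) against Syn1Cre animals 4 to 6, and Slc39a12 without single animals (-0.15 to 0.58). In Syn1Cre_SP1_P10 over Syn1Cre they were Slc7a11 (total insertions 0.50, distinct positions 0.54, gene body 0.42, block 0.65, Syn1Cre 1 to 3 0.65, single animals out -0.29 to 0.40, above 0 at 0.07 and 0.40), Pla2g7 (0.45, 0.25, 0.30, 0.67, 0.67, and -0.65 to 0.14 with single animals out, above 0 at 0.01, 0.07, 0.10 and 0.14), Cpe (distinct positions 0.11), Aldoc (DESeq2 -0.22, no filter -0.05, at least 2 reads -0.20, Syn1Cre 4 to 6 -0.36, single animals out -0.13 to 0.51, below 0 also at -0.04, -0.06 and -0.07), Cst3 (Syn1Cre 4 to 6 -0.21) and Mlc1 (1 animal out -0.53 to 0.80). Elsewhere they were Cpe in BrokenHeart over C57bl6J (distinct positions 0.36), Slc39a12 in Rbp4Cre_TRAP over Syn1Cre (1 animal out -2.08 to 0.03), Clu in Frontflip_GFAPCre over GFAPCre (at least 2 reads 0.04, 1 animal out -0.26 to 0.05) and Aldoc in Syn1CreNeg over GFAPCreNeg (DESeq2 -0.02, distinct positions -0.10, block -0.13, Syn1CreNeg 1 to 3 -0.30). In all 20 alternatives of GFAPCre over GFAPCreNeg, Slc7a11, Cpe, Atp13a4 and Slc39a12 stayed past the threshold.

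The replicate numbers did not pair animals: same-numbered animals had correlations of -0.14 to 0.15, so the replicate block is only an alternative. With total insertions as library size, the share of called loci that were higher was 33.6% in place of 56.1% for C57bl6J over GFAPCre, 75.5% in place of 85.9% for Frontflip_GFAPCre over GFAPCre, and 100% in place of 66.7%, of very few loci, for Syn1CreNeg over GFAPCreNeg. Few insertions limit Apoe and Mlc1 throughout, and all members in Rbp4Cre_TRAP, BrokenHeart and Frontflip_GFAPCreNeg. A member below the threshold there may still differ.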

Other observations

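The strand recorded for an insertion was not evenly split at most members in libraries read from RNA. In Slc7a11 76.2% of 9085 insertions in the RNA-read animal groups were on the plus strand (exact 95% interval 75.3% to 77.0%), against 53.4% of 88 in BrokenHeart (42.5% to 64.1%). In Pla2g7 the plus share was 69.7% of 1623 against 50% of 24 (29.1% to 70.9%), and in Cpe 42.3% of 23237 against 50% of 80 (38.6% to 61.4%). Clu (21%), Aldoc (23.2%) and Slc39a12 (25.1%) were mostly on the minus strand. The intervals cover counting error only, the animals of all groups are pooled in them, and what the strand column stands for is not given in the sources used here. By group with at least 50 insertions, the plus share of Slc7a11 ran from 70.5% to 86.5% and that of Clu from 9.02% to 36.6%.

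In Rbp4Cre_TRAP over Syn1Cre edgeR called 0 of 9 glutathione and cystine genes (1 at an unadjusted p under 0.05, 0 in DESeq2) and 0 of 14 glycolysis genes (0 and 0), and peptide processing genes gave 0 higher and 2 lower of 12, with the sorting receptor Sort1 at -1.82 ± 0.40 (adjusted p = 0.0108). In BrokenHeart over C57bl6J the peptide-amidating enzyme Pam was the 1 lower gene of 4 peptide processing genes in the fit (-0.66 ± 0.16, adjusted p = 0.00156), and Pla2g4a, a cytosolic phospholipase, the 1 higher of 2 phospholipase genes (1.36 ± 0.41, adjusted p = 0.00767). Among neuron markers 1 of 10 was higher and 5 lower there, with Stmn2 at -2.59 ± 0.39 (adjusted p = 2.95e-06).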
